A study of Mus musculus with 12 samples.

Results

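Lymphoid-primed multipotent progenitors (LMPPs) that had lost *Hdac3* were compared with control LMPPs, and the comparison was taken across all genes of the deposited LMPP table. The 4 LMPP libraries, 2 HDAC3-deficient and 2 control, were selected by their sample labels from the 12 RNA-seq libraries of the series. HDAC3-deficient LMPPs came from *Hdac3* fl/fl CreERT2 mice, in which exon 3 of *Hdac3* is flanked by loxP sites and a tamoxifen-inducible Cre is expressed from the ubiquitous *Rosa26* locus. Control LMPPs came from *Hdac3* fl/fl mice without CreERT2. Both genotypes were on the C57BL/6 background and received tamoxifen intraperitoneally for 5 days, and cells were sorted from bone marrow 7 days after the last dose. LMPPs were sorted as the Flt3+CD34+ subset of lineage-negative Sca-1+c-Kit+ (LSK) cells. The controls thus shared the drug but not the recombinase, and the deletion was not restricted to LMPPs. The sources used here do not say that the 2 libraries of a genotype came from separate mice, so p values reflect only how far these samples vary, and that variation may be technical.

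HDAC3 is a histone deacetylase that removes acetyl groups from lysines and is the enzyme of the corepressor complexes built on NCoR and SMRT, which transcription factors recruit to silence target genes. LMPPs are early bone marrow progenitors with lymphoid and myeloid potential that have largely given up megakaryocytic and erythroid fates. The question put to these libraries was which genes and programs of the progenitor change when HDAC3 is removed.

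*Hdac3* measured 16.9 and 9.87 FPKM in HDAC3-deficient LMPPs, against 56.5 and 66.3 FPKM in control LMPPs (log2 change −2.20, SE 0.22; limma, adjusted p = 2.19e-05). All transcripts of the gene are counted in this value, including any that lack only exon 3. Of the sort markers, *Flt3* measured 314 and 312 FPKM without HDAC3, against 402 and 473 FPKM in controls, and *Cd34* 577 and 523 FPKM without HDAC3, against 797 and 807 FPKM in controls, so that both were abundant in every library and neither had a call. Of the 7 tested LMPP and progenitor surface markers, 3 fell, among them *Kit* and *Cd27*, and *Cd48*, a SLAM family gene, rose (log2 change −0.75, −0.89 and 0.57). The falls of these markers numbered 5 without HDAC3-deficient library 1, 1 without control library 2, 0 with the median-ratio scaling and 5 after quantile normalization. FPKM is the number of fragments per kilobase of transcript, scaled to the fragments mapped in the library. The libraries held an estimated 18800000 to 19200000 fragments each, read from the step that a single fragment makes in the FPKM of short genes, and correlated across genes at r = 0.986 within the HDAC3-deficient pair and 0.985 within the control pair, against 0.959 to 0.963 between genotypes. Control library 1 stood apart in its hemoglobin. Hemoglobin transcripts made up 1.49% of its FPKM, against 0.0164% and 0.0387% in the HDAC3-deficient libraries and 0.0313% in control library 2. *Hba-a1*, an alpha-globin gene, measured 31.4 and 96.1 FPKM in HDAC3-deficient LMPPs, against 3699.6 and 58.4 FPKM in control LMPPs, so that only control library 1 was high. *Cd48* had no call without control library 1, nor had *Kit* and *Cd48* without control library 2.

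Expression was lower in HDAC3-deficient LMPPs for most genes that differed. Of 11146 genes tested as log2(FPKM + 0.5), 480 were higher (4.31%) and 2096 were lower (18.8%) at an adjusted p under 0.05 (limma with Benjamini-Hochberg correction, which stands behind every adjusted p below). At least 2-fold changes numbered 92 rises and 1028 falls, and at least 4-fold changes 9 rises and 112 falls. A gene named below as having risen or fallen passed this test, and a fold change is on the log2(FPKM + 0.5) scale, which understates changes near 0 FPKM. Without control library 1, the hemoglobin-rich one, 287 genes were higher and 1304 lower, whereas leaving out control library 2 gave 172 and 995. Leaving out HDAC3-deficient library 1 gave 951 and 2981, on the assumption that the single library left varies like those of the other group.

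The direction of change depended on the level of expression. Among genes with a mean under 5 FPKM, 1.19% rose, 22.6% fell and the median log2 change was −0.48. Among genes at 100 FPKM or more, 15.2% rose, 5.56% fell and the median was 0.24. FPKM values are scaled to the fragments mapped in a library, and their sums differed between libraries. The sums were 616463 and 707128 in HDAC3-deficient libraries 1 and 2, against 622839 and 596771 in control libraries 1 and 2. The median of all tested genes was −0.23 on this scale. It was 0 after rescaling the libraries by their median ratio and 0.03 after quantile normalization. Falls made up 81.4% of calls on the deposited scale, 53.7% (863 rises and 999 falls) with the median ratio and 52.9% (777 and 874) after quantile normalization. A gene list made of abundant transcripts therefore starts from a higher median than a list of rare ones, and the part of level and scaling in the list results below was not tested. Each list is read against the shares of 4.31% and 18.8% among all genes.

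**Figure D1:**
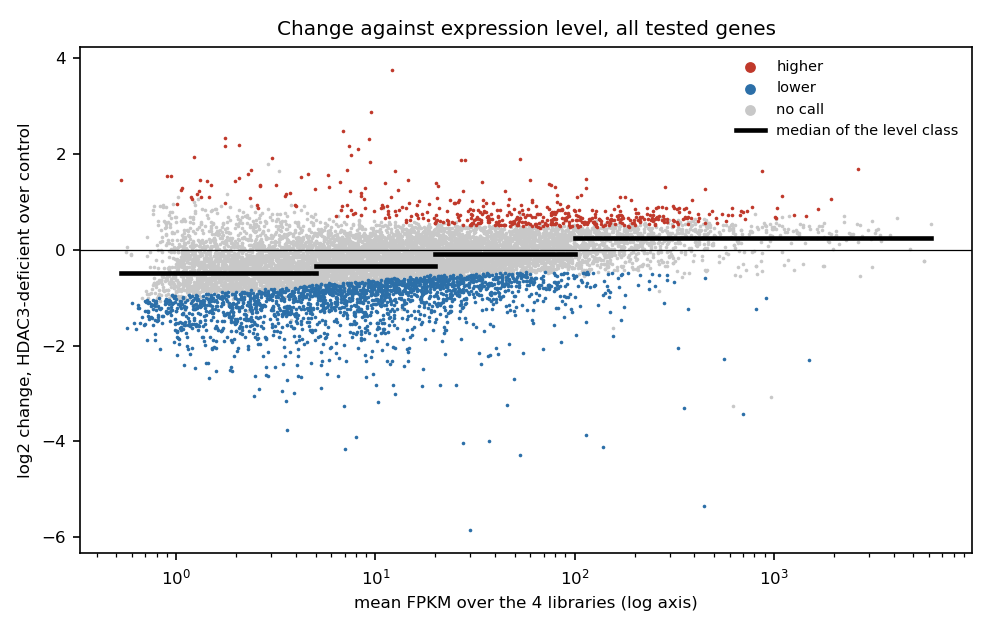
Change against level for the 11146 genes tested. The horizontal axis is the mean FPKM over the 4 libraries (log axis) and the vertical axis the log2 change of HDAC3-deficient over control LMPPs, each point is a gene (red higher, blue lower, grey no call), and black bars are the medians of 4 level classes. The bars climb from −0.48 under 5 FPKM to 0.24 at 100 FPKM and above.

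Most of the 12 largest falls were in stress-inducible chaperones, in genes of mature neutrophils and in immediate early factors. *Prss34*, of the mast cell and basophil list (log2 change −3.25), and *Ddx4* were among the 12 but outside these classes. *Hspb1*, which encodes the small heat shock protein HSP25 of the mouse, measured 0.66 and 0.38 FPKM in HDAC3-deficient LMPPs, against 71.8 and 46.8 FPKM in control LMPPs (log2 change −5.86, SE 0.26; limma, adjusted p = 8.75e-09). *S100a9*, a subunit gene of the neutrophil protein calprotectin, measured 9.34 and 2.18 FPKM in HDAC3-deficient LMPPs, against 109.8 and 90.8 FPKM in control LMPPs (log2 change −4.29; limma, adjusted p = 9.88e-06). Both HDAC3-deficient libraries lay far below both controls for each gene. *Ddx4*, an RNA helicase gene best known from germ cells, measured 0.95 and 0.89 FPKM without HDAC3, against 13.5 and 12.5 FPKM in controls (log2 change −3.25; limma, adjusted p = 4.86e-06), a fall shared by both libraries, and is on none of the lists described below. In absolute FPKM, leaving out hemoglobin, the largest losses were of *Fos*, *Hspa1a*, *Dusp1* and *Zfp36*.

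The largest rise of a named gene was in *Trem1*, which encodes an activating myeloid receptor, with 18.9 and 15.1 FPKM in HDAC3-deficient LMPPs, against 2.55 and 1.32 FPKM in control LMPPs (log2 change 2.88, SE 0.28; limma, adjusted p = 1.50e-05). *Tyrobp*, which encodes the signaling adaptor DAP12 that TREM1 needs, rose with it at 390.5 and 420.1 FPKM without HDAC3, against 159 and 168 FPKM in controls (log2 change 1.30; limma, adjusted p = 1.56e-04), as did *Trem3* at 10.4 and 28.8 FPKM without HDAC3, against 4.12 and 6.55 FPKM in controls (log2 change 1.65; limma, adjusted p = 0.00543). Of 20 tested TREM, Fc receptor and ITAM genes these were the only 3 that rose, and 4 fell, among them *Fcer1a*, the IgE-binding subunit of the high-affinity IgE receptor, at 0.75 and 0.39 FPKM without HDAC3, against 8.14 and 5.13 FPKM in controls (log2 change −2.73). The falls of this group numbered 1 without control library 2, 1 with the median-ratio scaling and 1 after quantile normalization. *Ccr7*, the chemokine receptor gene that directs cells to lymph nodes, measured 15.2 and 9.28 FPKM in HDAC3-deficient LMPPs, against 1.37 and 3.52 FPKM in control LMPPs (log2 change 2.17; limma, adjusted p = 6.77e-04). *Gimap7*, a GTPase gene of lymphocytes, measured 51.3 and 34 FPKM in HDAC3-deficient LMPPs, against 10.04 and 12.1 FPKM in control LMPPs (log2 change 1.88; limma, adjusted p = 5.90e-05). *Gimap9* and *Gimap4* of the same chromosome 6 cluster rose too (log2 change 0.97 and 1.51), whereas the 5 other tested family members had no call and log2 differences from −0.18 to 0.10. *Ccnd1*, which encodes cyclin D1, measured 14.9 and 15.1 FPKM in HDAC3-deficient LMPPs, against 4.0 and 3.7 FPKM in control LMPPs (log2 change 1.83; limma, adjusted p = 1.07e-04). *Scin*, an actin-severing protein gene, and *Rapsn*, known from the neuromuscular synapse, rose as well. *Scin* measured 4.4 and 2.15 FPKM without HDAC3, against 0.07 and 0.39 FPKM in controls, and *Rapsn* 14.7 and 16.6 FPKM without HDAC3, against 3.77 and 1.94 FPKM in controls. In each of these rises both HDAC3-deficient libraries lay above both controls. Among abundant transcripts, *Plac8*, a gene of early myeloid and lymphoid cells, was highest at 3853 and 4191 FPKM without HDAC3, against 1231 and 1271 FPKM in controls (log2 change 1.68; limma, adjusted p = 4.83e-04), but it missed the test when either control library was left out (adjusted p = 0.0546 and 0.0634). *Gimap4* had no call without HDAC3-deficient library 1.

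Genes that cells switch on within minutes of a stimulus fell together, well beyond *Egr1*. Of 31 Egr, AP-1 and related immediate early genes, 22 passed the level filter and 12 of them fell, 0 rose and 10 had no call (median log2 change −0.74, against −0.23 for all genes). *Jun*, which encodes an AP-1 component, measured 79.99 and 52.1 FPKM in HDAC3-deficient LMPPs, against 598 and 686 FPKM in control LMPPs (log2 change −3.30, SE 0.20; limma, adjusted p = 2.40e-07). *Fos*, which encodes its partner, measured 670.4 and 378 FPKM in HDAC3-deficient LMPPs, against 2345 and 2641 FPKM in control LMPPs (log2 change −2.30, SE 0.26; limma, adjusted p = 6.45e-05), and *Egr1*, a zinc finger factor gene, 19.1 and 10.2 FPKM in HDAC3-deficient LMPPs, against 188 and 239 FPKM in control LMPPs (log2 change −3.87, SE 0.23; limma, adjusted p = 2.40e-07). The controls of all 3 genes lay close together and HDAC3-deficient library 2 was the lowest of the 4 libraries each time. *Btg2*, an antiproliferative gene, and *Zfp36*, which encodes the mRNA-destabilizing protein tristetraprolin, fell as well. *Btg2* measured 23.4 and 16.5 FPKM without HDAC3, against 82.6 and 96.7 FPKM in controls, and *Zfp36* 606 and 382 FPKM without HDAC3, against 1001 and 1271 FPKM in controls. *Dusp1*, the phosphatase gene that shuts off MAP kinases, measured 237 and 154 FPKM in HDAC3-deficient LMPPs, against 939 and 929 FPKM in control LMPPs (log2 change −2.29; limma, adjusted p = 9.88e-06). Of 12 tested MAP kinase and receptor tyrosine kinase feedback inhibitors it was 1 of 4 that fell, with *Dusp16*, *Spry2* and *Dusp6*, and 0 rose. The falls among these inhibitors numbered 1 without HDAC3-deficient library 2, 2 without control library 2, 1 with the median-ratio scaling and 2 after quantile normalization. *Spry2* had no call without control library 1, nor had *Dusp16* and *Spry2* without control library 2, nor had *Dusp16*, *Spry2* and *Dusp6* without HDAC3-deficient library 2.

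Krüppel-like factors followed. Of 13 tested Krüppel-like and Nr4a genes, 6 fell and 0 rose (median −0.56). *Klf6* measured 19.6 and 8.24 FPKM in HDAC3-deficient LMPPs, against 83.3 and 88.1 FPKM in control LMPPs (log2 change −2.70; limma, adjusted p = 2.69e-05), and *Klf2*, which keeps lymphocytes quiescent and circulating, measured 2.53 and 1.71 FPKM in HDAC3-deficient LMPPs, against 14.2 and 17.4 FPKM in control LMPPs (log2 change −2.65; limma, adjusted p = 1.50e-05). *S1pr1*, the sphingosine-1-phosphate receptor gene by which cells leave tissues and a known target of KLF2 in T cells, measured 0.40 and 0.47 FPKM in HDAC3-deficient LMPPs, against 4.8 and 5.89 FPKM in control LMPPs (log2 change −2.64; limma, adjusted p = 5.78e-05). For the 3 genes the highest HDAC3-deficient library lay under the lowest control. Of 13 tested glucocorticoid-responsive genes, 8 fell, 0 rose and 5 had no call (median −1.03). *Sgk1*, a serine-threonine kinase gene, fell at 2.54 and 1.44 FPKM without HDAC3, against 10.4 and 11.9 FPKM in controls (log2 change −2.26; limma, adjusted p = 1.08e-04). *Tsc22d1* and *Txnip* fell as well (log2 change −1.30 and −1.23). *Dusp1* and *Klf9* are counted both here and in another list, and the falls include the receptor gene *Nr3c1* (log2 change −1.03). The 5 without a call, named after their values were seen, went both ways. *Fkbp5*, *Per1* and *Ddit4* had log2 differences of 0.31, 0.27 and 0.26, and *Tsc22d3* and *Pik3ip1* of −0.50 and −0.45. Falls of glucocorticoid-responsive genes numbered 5 without control library 1 and 5 after quantile normalization. Of 20 tested NF-kB factors, inhibitors and targets, 9 fell and 1 rose (median −0.46). *Tnfaip3*, the gene of the NF-kB inhibitor A20, measured 2.78 and 1.39 FPKM without HDAC3, against 6.26 and 8.83 FPKM in controls (log2 change −1.67; limma, adjusted p = 0.00212), and the chemokine genes *Ccl3* and *Ccl4* fell (log2 change −1.19 and −0.75). *Tnf* was the 1 rise at 11.5 and 11 FPKM without HDAC3, against 3.88 and 8.93 FPKM in controls (log2 change 0.87; limma, adjusted p = 0.0498), and its adjusted p was 0.539 without control library 1. The falls of the NF-kB list numbered 4 without control library 2, 3 with the median-ratio scaling and 4 after quantile normalization. *Ccl4* had no call without control library 2.

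**Figure D2:**
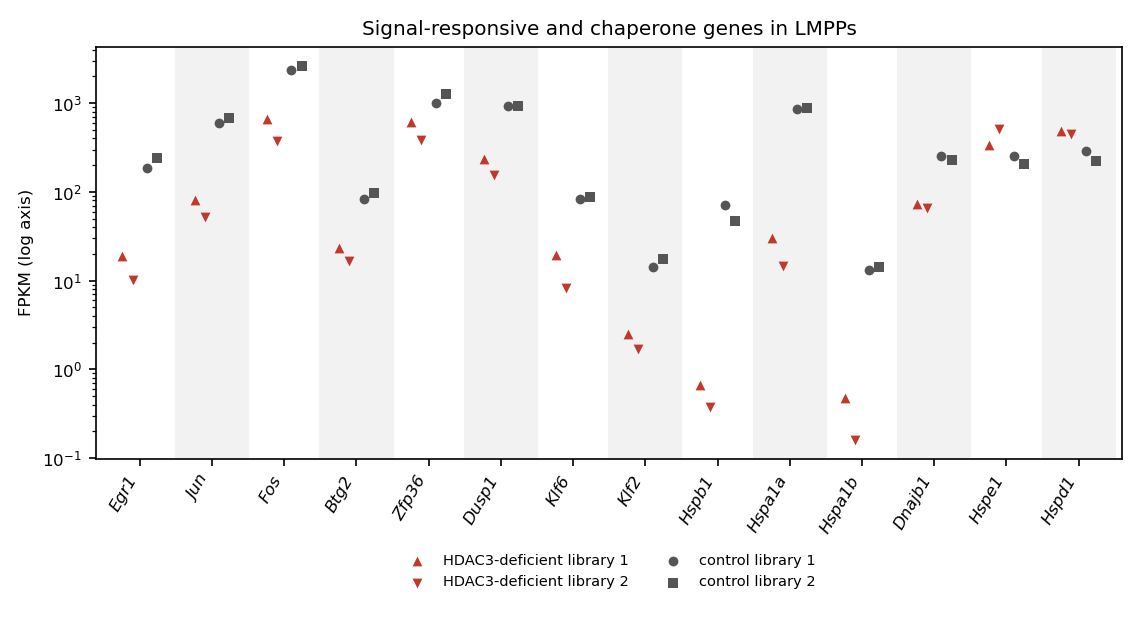
FPKM (log axis) of 14 signal-responsive and chaperone genes in each LMPP library. Red triangles are the 2 HDAC3-deficient libraries and grey symbols the 2 control libraries. For the first 12 genes, from *Egr1* to *Dnajb1*, both red symbols lie below both grey ones, and for *Hspe1* and *Hspd1* both lie above them.

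The heat shock chaperones did not move as 1 group. Of 18 tested members, 6 fell, 2 rose and 10 had no call (median 0.11). *Hspa1a*, the inducible HSP70 gene, measured 30.1 and 14.7 FPKM in HDAC3-deficient LMPPs, against 865 and 880.3 FPKM in control LMPPs (log2 change −5.34, SE 0.24; limma, adjusted p = 8.75e-09). Its near-identical neighbor *Hspa1b* measured 0.47 and 0.16 FPKM without HDAC3, against 13.3 and 14.1 FPKM in controls, and how reads were divided between the pair is uncertain. *Dnajb1*, the gene of an HSP40 cochaperone of HSP70, measured 73.7 and 65 FPKM without HDAC3, against 257 and 229.7 FPKM in controls (log2 change −1.80; limma, adjusted p = 9.10e-06). With any 1 of the 4 libraries left out, the count of falls was 6 or 7. The 2 rises were in the mitochondrial chaperonin pair *Hspd1* (HSP60) and *Hspe1* (HSP10), which share a bidirectional promoter. *Hspd1* measured 491 and 450.03 FPKM without HDAC3, against 292 and 224 FPKM in controls (log2 change 0.88; limma, adjusted p = 0.00493), and *Hspe1* 338 and 506 FPKM without HDAC3, against 255 and 204 FPKM in controls (log2 change 0.86; limma, adjusted p = 0.0101). Both missed the test without control library 2 (adjusted p = 0.181 and 0.153). *Hspa8* and *Hsp90aa1*, abundant cytosolic chaperone genes named after their values were seen, had no call (log2 difference 0.31 and 0.38). Genes that moved in opposite directions shared a sequence feature. The heat shock element pair, searched as GAANNTTC (the same on both strands), was found in the 250 bases before the start of 7 of the 15 list members with a RefSeq promoter (46.7%), against 7.73% of 27025 genes in all. It was there in *Hspa1a*, *Hspa1b* and *Hspb1*, which fell, and in *Hspd1* and *Hspe1*, which rose. It was also in *Dnaja1* and *Fkbp4*, which had no call, and absent from *Dnajb1*, *Dnajb4* and *Hspa4l*, which fell. The 7 are not independent, since *Hspd1* and *Hspe1* share a promoter and *Hspa1a* and *Hspa1b* are near-identical. The promoters of the 2 largest falls and of *Hspe1* are shown for this contrast as those 250 bases on RefSeq's GRCm38.p6, 5′ to 3′ on the gene's strand, with matches in capitals. They lie at chr17:34972157-34972406 on the minus strand (*Hspa1a*), chr5:135887669-135887918 on the plus strand (*Hspb1*) and chr1:55087898-55088147 on the plus strand (*Hspe1*).
Hspa1a: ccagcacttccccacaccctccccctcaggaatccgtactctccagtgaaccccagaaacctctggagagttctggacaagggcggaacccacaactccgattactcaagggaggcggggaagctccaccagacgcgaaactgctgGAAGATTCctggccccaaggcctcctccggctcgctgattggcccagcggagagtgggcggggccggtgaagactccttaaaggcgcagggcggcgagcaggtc
Hspb1: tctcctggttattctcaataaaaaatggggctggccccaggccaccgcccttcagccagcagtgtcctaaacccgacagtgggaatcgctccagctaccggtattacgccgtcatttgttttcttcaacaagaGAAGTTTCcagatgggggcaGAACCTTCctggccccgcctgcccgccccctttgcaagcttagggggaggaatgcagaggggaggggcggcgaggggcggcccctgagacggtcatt
Hspe1: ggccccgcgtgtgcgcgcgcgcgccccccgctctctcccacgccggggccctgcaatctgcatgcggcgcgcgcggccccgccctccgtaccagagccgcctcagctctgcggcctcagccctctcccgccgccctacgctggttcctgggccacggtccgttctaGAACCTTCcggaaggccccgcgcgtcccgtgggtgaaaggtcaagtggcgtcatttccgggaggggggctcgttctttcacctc
A match describes these letters and is not evidence that a factor bound there.

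Interferon-stimulated genes were lower in HDAC3-deficient LMPPs as a list. These genes carry the antiviral program that type I interferons switch on through JAK and STAT signaling. Of 33 tested, 21 fell, 0 rose and 12 had no call (median −0.95), and in 29 of them both control libraries exceeded both HDAC3-deficient ones, an arrangement seen in 48.2% of all genes. *Ifih1*, which encodes the RNA sensor MDA5, measured 3.62 and 2.77 FPKM in HDAC3-deficient LMPPs, against 10.2 and 13.3 FPKM in control LMPPs (log2 change −1.72, SE 0.25; limma, adjusted p = 4.02e-04). *Oasl2*, of the oligoadenylate synthetase family, measured 16.8 and 14.2 FPKM in HDAC3-deficient LMPPs, against 40.9 and 56.7 FPKM in control LMPPs (log2 change −1.61, SE 0.20; limma, adjusted p = 1.03e-04). *Ifi44* measured 3.61 and 3.55 FPKM without HDAC3, against 13 and 13.6 FPKM in controls (log2 change −1.76; limma, adjusted p = 1.65e-04), and *Rtp4* 22.4 and 17.6 FPKM without HDAC3, against 46.2 and 50.8 FPKM in controls (log2 change −1.27; limma, adjusted p = 3.26e-04). In none of the 4 genes did the groups overlap. Among the factor genes of the pathway, *Stat2*, *Irf9* and *Irf7*, named after their values were seen, fell (log2 change −1.01, −0.75 and −1.21). The 3 most abundant members, *Ifitm3*, *Ifi27* and *Bst2*, also named after their values were seen, had no call, with *Ifitm3* at 669 and 919 FPKM without HDAC3, against 821 and 780.4 FPKM in controls. *Ifitm1*, which was on no list, rose at 1583 and 2053 FPKM without HDAC3, against 1179 and 1022 FPKM in controls (log2 change 0.72; limma, adjusted p = 0.0432), but had no call with either control library left out. The 21 falls numbered 21 again without control library 1, 14 without control library 2, 15 with the median-ratio scaling and 15 after quantile normalization, with 0 rises each time.

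The interferon receptor subunit genes *Ifnar1* and *Ifnar2*, named after their values were seen, had no call (log2 difference 0.07 and 0.04). Of 23 tested JAK, STAT, SOCS and PIM genes, 9 fell and 1 rose, with *Jak2* (1.13 and 0.48 FPKM without HDAC3, 3.77 and 2.52 FPKM in controls) and *Stat3* (51.1 and 42.6 FPKM without HDAC3, 74.7 and 79.5 FPKM in controls) among the falls. *Pim3*, a survival kinase gene, was the rise at 24.8 and 24.3 FPKM without HDAC3, against 15.9 and 15.9 FPKM in controls. The falls of this list numbered 2 without control library 2, 2 with the median-ratio scaling and 3 after quantile normalization. The interferon-stimulated response element, searched on both strands as a pair of GAAA blocks separated by 2 bases, was present before the start of 9 of the 21 tested list members with a RefSeq promoter (42.9%), and of 6 of the 14 that fell (42.9%), against 3.46% of all promoters. The promoters of *Ifit1* and *Ifit3*, which were chosen after their values were seen, are shown because each carries the element 2 times, here in capitals and, on the gene's strand, as a pair of TTTC blocks. *Ifit1* measured 2.34 and 1.4 FPKM without HDAC3, against 7.85 and 8.31 FPKM in controls, and *Ifit3* 1.2 and 1.1 FPKM without HDAC3, against 4.69 and 6.12 FPKM in controls, both falls. They lie at chr19:34640639-34640888 on the plus strand (*Ifit1*) and chr19:34583279-34583528 on the plus strand (*Ifit3*) of GRCm38.p6. *Ifit* genes are close paralogs, so the split of reads among them is uncertain. *Pim3* had no call without control library 1, nor had *Stat3* and *Pim3* without control library 2.
Ifit1: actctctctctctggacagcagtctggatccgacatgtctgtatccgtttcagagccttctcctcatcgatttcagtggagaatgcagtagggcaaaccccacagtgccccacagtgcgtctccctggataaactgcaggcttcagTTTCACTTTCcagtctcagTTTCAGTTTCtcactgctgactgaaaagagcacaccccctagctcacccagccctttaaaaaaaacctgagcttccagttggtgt
Ifit3: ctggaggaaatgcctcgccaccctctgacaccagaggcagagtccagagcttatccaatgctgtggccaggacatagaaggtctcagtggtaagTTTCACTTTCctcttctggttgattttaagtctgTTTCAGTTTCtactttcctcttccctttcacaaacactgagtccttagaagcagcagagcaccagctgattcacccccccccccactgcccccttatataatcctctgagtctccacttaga

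**Figure D3:**
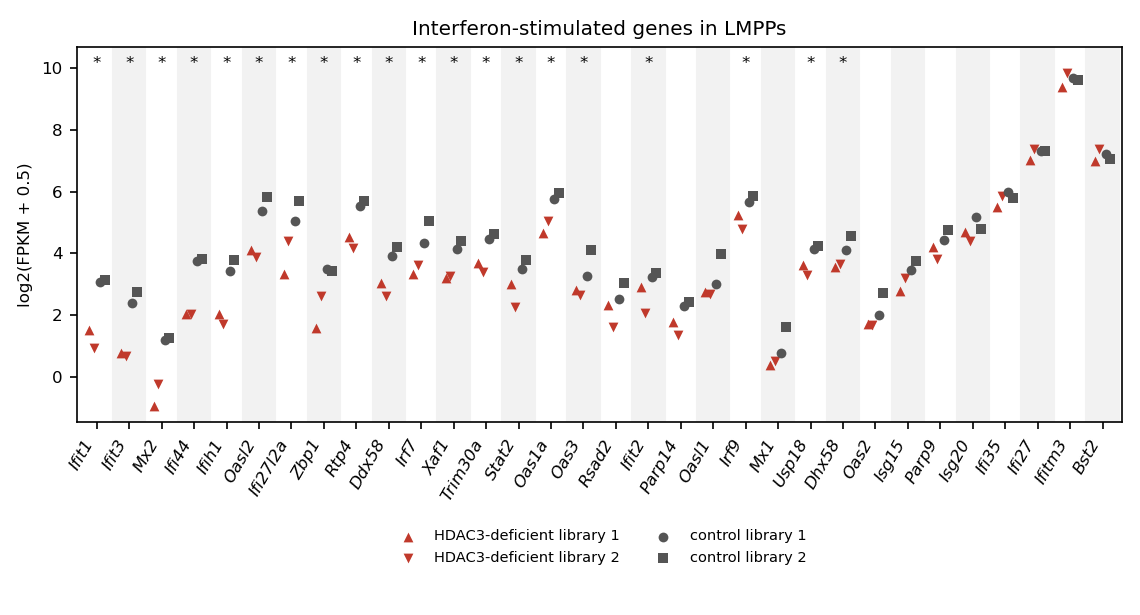
log2(FPKM + 0.5) of 32 of the 33 tested interferon-stimulated genes, ordered by log2 change, in each LMPP library (red triangles HDAC3-deficient, grey symbols control). Asterisks mark genes that fell. Red symbols lie below grey ones in 28 of the genes shown, and the abundant genes at the right, such as *Ifitm3* and *Bst2*, show no such separation.

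Genes for making ribosomes, nucleotides and proteasomes lay higher in HDAC3-deficient LMPPs. Of 44 ribosome biogenesis and nucleolar genes, all tested, 21 rose (47.7%) and 0 fell (median 0.53). *Npm1*, the gene of the abundant nucleolar chaperone nucleophosmin, measured 1289 and 1383 FPKM in HDAC3-deficient LMPPs, against 701 and 759 FPKM in control LMPPs (log2 change 0.87, SE 0.21; limma, adjusted p = 0.00941). *Nolc1*, a nucleolar scaffold gene, measured 146 and 135 FPKM in HDAC3-deficient LMPPs, against 76.5 and 55.2 FPKM in control LMPPs (log2 change 1.10; limma, adjusted p = 8.76e-04), and *Rrp1b* and *Mybbp1a* also rose (log2 change 1.24 and 0.81). In all 4 genes both HDAC3-deficient libraries were above both controls. The count depended on the controls, of which library 2 was the lower for *Nolc1*, *Rrp1b* and *Mybbp1a*. Its rises numbered 4 without control library 2. The median stayed above that of all genes under both scalings (0.78 and 0.56, against 0 and 0.03). *Npm1* had no call without control library 1, nor had *Npm1* and *Mybbp1a* without control library 2.

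Of 29 nucleotide synthesis enzymes, 11 rose and 0 fell (median 0.46). *Gart*, a trifunctional enzyme gene of purine synthesis, measured 231 and 229 FPKM in HDAC3-deficient LMPPs, against 115 and 100.05 FPKM in control LMPPs (log2 change 1.10, SE 0.16; limma, adjusted p = 4.31e-04). *Rrm2*, the regulatory subunit gene of ribonucleotide reductase, measured 171 and 143 FPKM without HDAC3, against 84.2 and 91.5 FPKM in controls (log2 change 0.83; limma, adjusted p = 0.00332), and *Mthfd2*, a mitochondrial folate enzyme gene, 32 and 39 FPKM without HDAC3, against 17.4 and 16.7 FPKM in controls (log2 change 1.03; limma, adjusted p = 0.00146). Here the rises numbered 7 without control library 1 and 3 without control library 2. Of 32 constitutive proteasome subunits, 7 rose, among them *Psma6* at 418 and 497 FPKM without HDAC3, against 265 and 238 FPKM in controls, and 0 fell (median 0.42). Of 79 cytoplasmic ribosomal proteins, 9 rose and 0 fell (median 0.43), and of 53 oxidative phosphorylation subunits 5 rose and 0 fell (median 0.32). These shares of rises, 11.4% and 9.43%, were under the 15.2% among all genes at 100 FPKM or more. The proteasome share was 21.9%. Rises of proteasome genes numbered 22 without HDAC3-deficient library 1, 2 without control library 1, 0 without control library 2, 15 with the median-ratio scaling and 3 after quantile normalization. Ribosomal proteins and oxidative phosphorylation followed HDAC3-deficient library 2. Proteasome genes were highest there too, with sums of 7323 and 9033 FPKM without HDAC3, against 6264 and 5568 FPKM in controls. Ribosomal protein genes held 15.2% and 18.5% of FPKM in HDAC3-deficient libraries 1 and 2, against 13.7% and 13.9% in the controls, and with library 2 as the only HDAC3-deficient library 69 of the 79 rose, against 7 with library 1 as the only one. Oxidative phosphorylation gave 36 and 1 in the same comparison. Without control library 1, 3 ribosomal protein genes and 2 oxidative phosphorylation genes rose, and without control library 2 there were 2 and 0. After quantile normalization their medians were 0.15 and 0.10. *Myc*, named here after its value was seen, had no call at 569.6 and 460.4 FPKM without HDAC3, against 422 and 345 FPKM in controls. *Mxd1* and *Mxd4*, genes of MAX partners that oppose MYC, fell (log2 change −1.17 and −1.34). They were the 2 falls of 11 tested MYC network genes (18.2%), near the 18.8% of all genes, and 0 rose. The falls of this list numbered 1 with the median-ratio scaling and 0 after quantile normalization. *Psma6*, *Mxd1* and *Mxd4* had no call without control library 2.

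The lactate dehydrogenase genes moved in opposite directions. Of 32 tested glycolysis enzymes and hypoxia targets, 5 rose and 7 fell (median 0.00). *Ldha*, the lactate dehydrogenase A gene, measured 1318 and 1698 FPKM in HDAC3-deficient LMPPs, against 755 and 633 FPKM in control LMPPs (log2 change 1.11; limma, adjusted p = 0.00354). *Ldhb*, the gene of the other subunit, measured 40.9 and 49.9 FPKM in HDAC3-deficient LMPPs, against 173 and 142 FPKM in control LMPPs (log2 change −1.78; limma, adjusted p = 1.40e-05), below both controls in both libraries. The *Ldha* call was lost without control library 2 (adjusted p = 0.171) and the *Ldhb* call in no alternative. *Hk1*, the hexokinase 1 gene, and *Ndrg1*, a hypoxia-induced gene, fell (log2 change −0.87 and −1.16). Rises of glycolysis genes numbered 3 without control library 1 and 1 without control library 2.

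**Figure D4:**
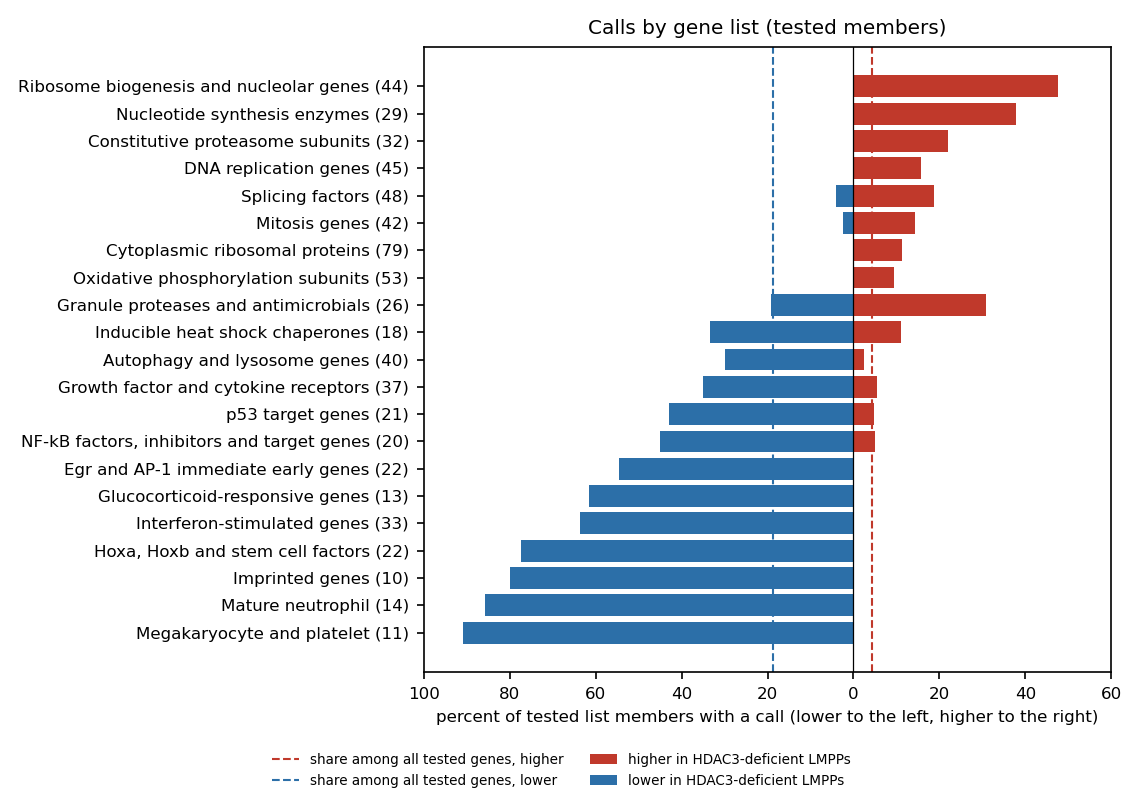
Percent of the tested members (number in parentheses) of 21 gene lists that were higher (red, to the right) or lower (blue, to the left) in HDAC3-deficient LMPPs. Dashed lines are the shares among all 11146 tested genes, 4.31% higher and 18.8% lower. Ribosome biogenesis reaches 47.7% higher with 0 lower, and megakaryocyte and platelet genes 90.9% lower with 0 higher.

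Cell cycle genes rose in part. Of 45 DNA replication genes 7 rose and 0 fell (median 0.27), with *Orc1*, an origin recognition complex gene, at 12 and 11.6 FPKM without HDAC3, against 5.18 and 5.13 FPKM in controls (log2 change 1.12; limma, adjusted p = 0.00334) and *Cdt1* and *Fen1* at lesser changes (log2 change 0.69 and 0.66). Of 42 mitosis genes 6 rose, led by the kinase gene *Aurka* at 110.01 and 112 FPKM without HDAC3, against 52 and 62.7 FPKM in controls (log2 change 0.96; limma, adjusted p = 0.00122), 1 fell (*Ccnb2*) and 35 had no call (median 0.06). With either control library left out, 2 replication genes and 1 mitosis gene rose, and with the median-ratio scaling 12 replication genes and 8 mitosis genes did, against 10 and 4 after quantile normalization. Among 22 tested CDK inhibitors, G1 cyclins and E2F and RB genes, 5 rose and 2 fell, and the rises numbered 3 without control library 2. The rises joined *Ccnd1* and *Ccne1* (21.6 and 21.1 FPKM without HDAC3, 11.6 and 10.4 FPKM in controls), which drive the entry to S phase, with *Cdkn1a*, the gene of the CDK inhibitor p21, at 93.1 and 83 FPKM without HDAC3, against 29.2 and 34 FPKM in controls (log2 change 1.47; limma, adjusted p = 5.80e-05). *Cdkn1a* was the only 1 of 21 tested p53 target genes that rose, and 9 fell (median −0.40). The falls included *Plk2*, a kinase gene, at 2.79 and 2.07 FPKM without HDAC3, against 18.3 and 15.8 FPKM in controls (log2 change −2.59; limma, adjusted p = 1.17e-05), *Gadd45a*, a growth arrest gene, at 1.07 and 1.35 FPKM without HDAC3, against 5.52 and 4.5 FPKM in controls and *Bbc3*, the gene of the cell death protein PUMA, at 0.80 and 1.08 FPKM without HDAC3, against 4.09 and 2.81 FPKM in controls. *Btg2* belongs to this list and to the immediate early one. Falls of p53 targets numbered 5 with the median-ratio scaling and 4 after quantile normalization. Of 43 tested DNA repair and checkpoint genes, 1 rose and 2 fell, shares under those of all genes. *Cdt1* and *Ccnb2* had no call without control library 1, nor had *Fen1* and *Ccnb2* without control library 2, nor had *Ccnb2* without HDAC3-deficient library 2.

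Stem cell factors beyond *Meis1* fell. Of 34 Hox and stem cell factor genes, 22 were tested, 17 fell and 0 rose (median −1.27). *Meis1*, a homeobox partner of HOXA9, measured 29.97 and 25.6 FPKM in HDAC3-deficient LMPPs, against 74.2 and 69.98 FPKM in control LMPPs (log2 change −1.36, SE 0.17; limma, adjusted p = 1.04e-04). *Nkx2-3*, a homeobox gene, measured 4.55 and 3.07 FPKM without HDAC3, against 17.5 and 17.8 FPKM in controls (log2 change −2.10; limma, adjusted p = 6.03e-05), *Hlf*, a stem cell transcription factor gene, 5.34 and 5.62 FPKM without HDAC3, against 24.4 and 23.9 FPKM in controls (log2 change −2.04; limma, adjusted p = 1.90e-05), and *Vldlr*, a lipoprotein receptor gene, 1.52 and 1.34 FPKM without HDAC3, against 11.5 and 11.5 FPKM in controls (log2 change −2.64; limma, adjusted p = 1.40e-05). For all 4 the controls agreed closely and both HDAC3-deficient libraries were lower. The count was 12 without control library 1 and 16 without control library 2. Imprinted genes, expressed from 1 parental allele and active in stem cells, showed the same direction. Of 23 listed, 10 were tested and 8 fell (median −1.13). *Igf2r*, a receptor gene that clears IGF2, measured 0.19 and 0.27 FPKM in HDAC3-deficient LMPPs, against 2.77 and 4.26 FPKM in control LMPPs (log2 change −2.44; limma, adjusted p = 2.10e-04), *Sgce*, a sarcoglycan gene of the *Peg10* cluster, 1.95 and 2.19 FPKM without HDAC3, against 8.7 and 8.27 FPKM in controls (log2 change −1.81; limma, adjusted p = 3.10e-04), and *Grb10*, an adaptor gene that restrains insulin signaling, 0.20 and 0.29 FPKM without HDAC3, against 2.1 and 1.56 FPKM in controls. The imprinted falls numbered 5 without control library 1 and 3 after quantile normalization.

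Of 6 NCoR/SMRT complex genes, *Hdac3* itself was the 1 with a call. Rises in this list numbered 1 with the median-ratio scaling and 2 after quantile normalization. *Tbl1x*, named after its values were seen, measured 46.7 and 36.3 FPKM without HDAC3, against 30.9 and 28.2 FPKM in controls (limma, adjusted p = 0.0681). Of 15 other tested deacetylases *Hdac11* and *Sirt2* fell (log2 change −1.37 and −0.80) and 0 rose. Among 25 tested histone genes 6 fell and 0 rose, against 10 falls without HDAC3-deficient library 2 and 4 rises without HDAC3-deficient library 1. *H1f0*, the gene of the linker histone H1.0 of resting cells, measured 21.5 and 16.5 FPKM in HDAC3-deficient LMPPs, against 69.8 and 80.2 FPKM in control LMPPs (log2 change −1.96; limma, adjusted p = 9.88e-06), and *Hist1h1c* and *Hist1h2bc* fell with it (log2 change −1.68 and −1.22). Histone genes of a cluster are near-copies, so single values are uncertain. Polycomb and DNA methylation enzymes went both ways, with 4 rises (18.2%) and 5 falls (22.7%) of 22. The share of falls was near the 18.8% of all genes, and 4.31% of all genes rose. With the median-ratio scaling there were 4 rises and 1 fall, and after quantile normalization 2 and 1. *Eed*, a core subunit gene of PRC2, and *Dnmt3b*, a de novo methyltransferase gene, rose (log2 change 0.83 and 0.57), and *Cbx7* and *Ring1*, of PRC1, and *Ezh1* fell (log2 change −1.23, −0.97 and −0.82). The list gave 0 rises and 1 fall without control library 2, and 1 rise and 1 fall without control library 1. Acetyltransferases and bromodomain readers gave 0 rises and 3 falls of 26 and the BAF complex 0 and 3 of 19, both at or under the shares of all genes. Acetyltransferase and bromodomain falls numbered 7 without HDAC3-deficient library 1, 1 without control library 2 and 0 after quantile normalization. BAF falls numbered 1 without control library 2. *Dnmt3b*, *Ring1* and *Ezh1* had no call without control library 1, nor had *Sirt2*, *Eed*, *Dnmt3b*, *Ring1* and *Ezh1* without control library 2.

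At the cell surface, falls outnumbered rises among receptors, adhesion molecules and tetraspanins, as they did among all genes. The shares that fell were 35.1%, 38.5% and 44.4%, against 18.8% of all genes. Of 37 tested growth factor and cytokine receptors, 13 fell and 2 rose (median −0.49). *Kit*, the stem cell factor receptor gene used in the sort, measured 87.3 and 67.5 FPKM in HDAC3-deficient LMPPs, against 122 and 138 FPKM in control LMPPs (log2 change −0.75; limma, adjusted p = 0.00758). *Il12rb1* and *Il10ra*, subunit genes of the interleukin-12 and interleukin-10 receptors, rose. *Il12rb1* measured 17.7 and 15.2 FPKM without HDAC3, against 8.76 and 6.28 FPKM in controls, and *Il10ra* 39.6 and 26.3 FPKM without HDAC3, against 13.2 and 19.6 FPKM in controls. Receptor falls numbered 5 without control library 2, 5 with the median-ratio scaling and 7 after quantile normalization. Of 26 tested integrin and adhesion genes, 10 fell and 2 rose, against 8 and 4 after quantile normalization. *Emcn*, the gene of endomucin, a sialoglycoprotein of endothelium and stem cells, measured 1.87 and 2.39 FPKM in HDAC3-deficient LMPPs, against 17.9 and 18.3 FPKM in control LMPPs (log2 change −2.83; limma, adjusted p = 5.74e-06), and *Itgb7*, an integrin gene of gut-homing lymphocytes, rose to 121 and 102 FPKM in HDAC3-deficient LMPPs, against 60.8 and 62.3 FPKM in controls. Falls of adhesion genes numbered 6 without control library 2. Of 18 tested tetraspanins, 8 fell and 0 rose, led by *Tspan17* (0.84 and 0.28 FPKM without HDAC3, 4.9 and 5.23 FPKM in controls). Tetraspanin falls numbered 3 without control library 1, 3 without control library 2 and 2 with the median-ratio scaling. *Il10ra* had no call without control library 1.

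MHC class II genes fell in 5 of 9 tested and rose in 0. *H2-Aa* measured 10.9 and 9.38 FPKM in HDAC3-deficient LMPPs, against 45.2 and 22.9 FPKM in control LMPPs (log2 change −1.62; limma, adjusted p = 7.82e-04), and *Cd74*, the invariant chain gene, 42.9 and 20.9 FPKM without HDAC3, against 118 and 64.2 FPKM in controls (log2 change −1.53; limma, adjusted p = 0.0028). Control library 1 was the highest library in both genes, and 4 members fell without it. Of 22 tested class I and antigen processing genes, 5 fell, all of the *H2-Q*, *H2-T* and *H2-M* groups, paralogs whose read assignment is uncertain, and 0 rose. Their falls numbered 2 without control library 2 and 1 with the median-ratio scaling. Lineage transcription factor genes numbered 12 falls and 1 rise of 29. *Gfi1b*, a repressor gene of the erythroid and megakaryocytic lines, measured 2.94 and 4.9 FPKM in HDAC3-deficient LMPPs, against 27.4 and 33.4 FPKM in control LMPPs (log2 change −2.83; limma, adjusted p = 6.46e-06), and *Gata3*, a T and stem cell factor gene, 1.56 and 1.01 FPKM without HDAC3, against 6.53 and 7.3 FPKM in controls (log2 change −2.07; limma, adjusted p = 2.41e-04). *Satb1* and *Lmo2* fell (log2 change −1.32 and −1.15). *Irf8*, which sets monocyte and dendritic fates, was the rise at 165 and 136 FPKM without HDAC3, against 81.5 and 109 FPKM in controls (log2 change 0.67; limma, adjusted p = 0.0174), and had no call without control library 1 (adjusted p = 0.236). The falls of lineage factors numbered 6 without control library 1 and 7 after quantile normalization.

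Genes of primary granules moved both ways, with a share of falls near that of all genes, and genes of mature neutrophils fell. Of 26 genes of primary granules and early myeloid cells, 8 rose (30.8%) and 5 fell (19.2%), against 4.31% and 18.8% of all genes (median 0.14). The falls numbered 4 with the median-ratio scaling and 7 after quantile normalization. *Ms4a3*, a gene of granulocyte and monocyte progenitors, measured 64.5 and 105 FPKM in HDAC3-deficient LMPPs, against 23.4 and 20.2 FPKM in control LMPPs (log2 change 1.90, SE 0.21; limma, adjusted p = 5.12e-05), and *Ctsg*, the cathepsin G gene, 1208 and 1453 FPKM without HDAC3, against 369 and 481 FPKM in controls (log2 change 1.65; limma, adjusted p = 1.61e-04). *Cd68*, a lysosomal glycoprotein gene of phagocytes, rose at 179 and 156 FPKM without HDAC3, against 60.7 and 58.2 FPKM in controls (log2 change 1.48; limma, adjusted p = 4.21e-05), and *Nkg7*, a granule membrane gene of cytotoxic cells, at 366 and 451 FPKM without HDAC3, against 221 and 222 FPKM in controls. *Lyz2*, the lysozyme gene, fell at 236 and 209 FPKM without HDAC3, against 541 and 504 FPKM in controls (log2 change −1.23; limma, adjusted p = 3.32e-04). In contrast, of 14 tested genes of mature neutrophils, 12 fell and 0 rose (median −2.45). *S100a8* measured 21.1 and 9.48 FPKM in HDAC3-deficient LMPPs, against 316 and 207 FPKM in control LMPPs (log2 change −4.13; limma, adjusted p = 9.62e-07), *Camp*, the cathelicidin gene, 4.01 and 1.69 FPKM without HDAC3, against 65.9 and 38.8 FPKM in controls, and *Ngp*, a secondary granule gene, 6.85 and 2.06 FPKM without HDAC3, against 83.4 and 56.4 FPKM in controls. The rises of granule genes numbered 4 without control library 1 and 5 without control library 2. In bulk libraries, fewer cells of a type among those sorted and less RNA per cell cannot be told apart. *Nkg7* had no call without control library 2.

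Markers of other blood cells were compared library by library for this reason. Summed over the 16 mature neutrophil genes, expression was 109 and 77 FPKM in HDAC3-deficient LMPPs and 736 and 544 FPKM in controls. The defining marker *Ly6g* was at 0 in both HDAC3-deficient libraries and at 0.96 and 0.99 FPKM in the controls, and *Stfa1* was at 0 in all 4. Megakaryocyte and platelet genes summed to 81.7 and 80.1 FPKM in HDAC3-deficient LMPPs and 190.2 and 213 FPKM in controls, and 10 of 11 tested fell (median −1.81). *Ppbp* and *Pf4*, platelet chemokine genes, were lower than in either control and highest in control library 2, with *Ppbp* (0.11 and 0.15 FPKM without HDAC3, 2.01 and 11.9 FPKM in controls) and *Pf4* (3.46 and 1.63 FPKM without HDAC3, 6.42 and 26.3 FPKM in controls), whereas *Mmrn1*, a platelet and stem cell protein gene, was at 0.97 and 0.35 FPKM without HDAC3, against 6.03 and 5.2 FPKM in controls. *Clec1b*, *Gp6* and *Gp1bb* were between 0 and 0.05 FPKM in the HDAC3-deficient libraries and at most 1.19 FPKM in the controls. Mast cell, basophil and eosinophil genes summed to 67.8 and 47.1 FPKM in HDAC3-deficient LMPPs and 196 and 161 FPKM in controls, with 5 of 8 tested lower, and *Cma1*, *Tpsb2* and *Mcpt4* were at 0 in all libraries. Stromal and endothelial genes summed to 99.3 and 86 FPKM in HDAC3-deficient LMPPs and 156 and 181 FPKM in controls (6 of 7 tested lower), with *Col3a1* and *Pdgfra* at 0 throughout. Stromal falls numbered 3 after quantile normalization. The part of such cells in the falls of the corresponding genes was not tested. The LMPP and progenitor surface markers summed lower too, at 1507 and 1468 FPKM in HDAC3-deficient LMPPs and 1920 and 2109 FPKM in controls.

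B-lineage genes fell in 5 of 9 tested, or in 3 after quantile normalization, and their sum was 377 and 283 FPKM in HDAC3-deficient LMPPs and 401 and 596 FPKM in controls. *Jchain*, the immunoglobulin joining chain gene, measured 1.42 and 0.23 FPKM without HDAC3, against 10.7 and 4.51 FPKM in controls (log2 change −2.66; limma, adjusted p = 9.47e-04). T and NK cell genes summed to 397 and 472 FPKM in HDAC3-deficient LMPPs and 254 and 255 FPKM in controls, a sum carried by *Nkg7*, while *Cd3d*, *Cd3e* and *Cd3g* stayed at or under 0.57 FPKM in every library. Monocyte and macrophage genes gave 1 rise (*Cd68*) and 3 falls of 8, with *C1qa* at 0 to 0.42 FPKM. They summed to 237 and 207 FPKM in HDAC3-deficient LMPPs and 112 and 132 FPKM in controls. *Cd68* alone held 179 and 156 FPKM of this without HDAC3, against 60.7 and 58.2 FPKM in controls. Dendritic cell genes gave 1 rise and 4 falls of 10, with *Ly6d* at 0.27 and 0.18 FPKM without HDAC3, against 5.9 and 4.11 FPKM in controls (log2 change −2.91; limma, adjusted p = 4.40e-05). Of 9 tested hemoglobin and erythroid genes, 3 fell and 1 rose. These falls came to 7 without HDAC3-deficient library 2, 1 without control library 1, 6 without control library 2, 1 with the median-ratio scaling and 1 after quantile normalization. The fall of the beta-globin gene *Hbb-bs*, 17.4 and 52.4 FPKM without HDAC3, against 2692 and 40.4 FPKM in controls, rested on control library 1, without which it had no call (log2 difference −0.41; limma, adjusted p = 0.29). *Ahsp*, the gene of the alpha-hemoglobin stabilizing protein, rose at 3.32 and 6.9 FPKM without HDAC3, against 0.55 and 1.39 FPKM in controls (log2 change 1.92; limma, adjusted p = 0.00274). Other red cell genes such as *Slc4a1* and *Epb42* were at or under 0.13 FPKM in all 4 libraries, and *Alas2* was at 0.12 and 0.38 FPKM without HDAC3, against 15.5 and 0.15 FPKM in controls. Within the controls, the 4 hemoglobin genes had log2 ratios of library 1 over library 2 from 2.92 to 6.39, whereas *Ppbp* and *Pf4* had the reverse, −2.31 and −1.95.

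**Figure D5:**
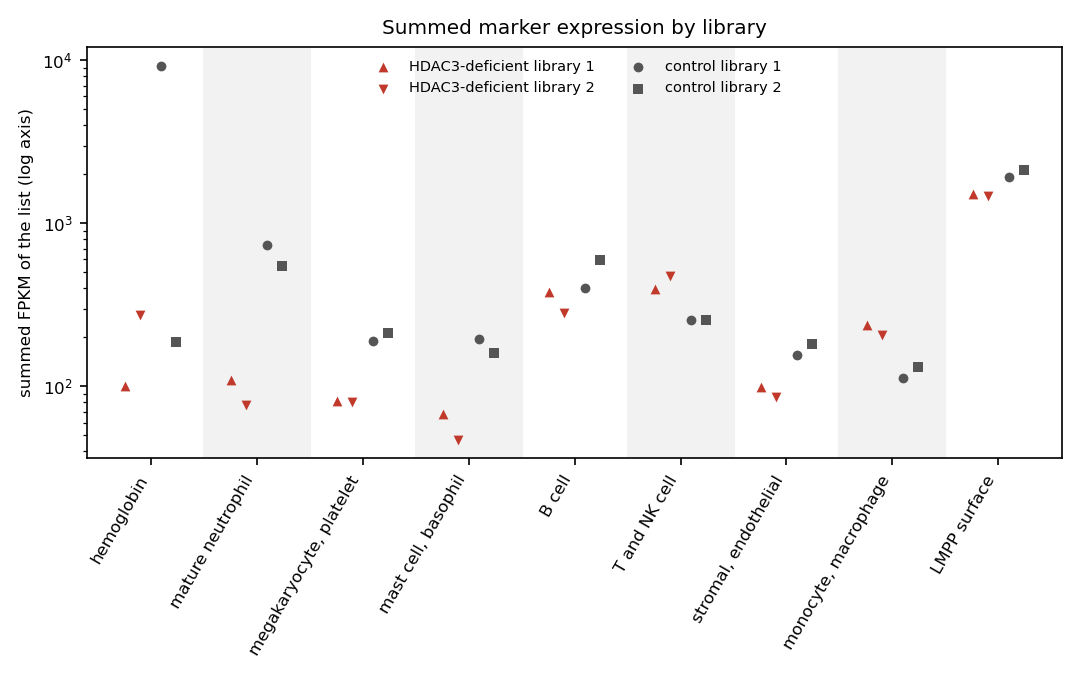
Summed FPKM (log axis) of hemoglobin genes and of 8 marker lists in each LMPP library, with red triangles for HDAC3-deficient and grey symbols for control libraries. Control library 1 alone is high in hemoglobin. Both controls exceed both HDAC3-deficient libraries in the mature neutrophil, megakaryocyte, mast cell, B cell and stromal sums, and also in the LMPP surface sum. The T and NK cell and the monocyte and macrophage sums go the other way.

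Among metabolic lists, autophagy and lysosome genes fell in 12 of 40 and rose in 1 (median −0.43). These falls numbered 7 without control library 2 and 5 with the median-ratio scaling. *Map1lc3a*, an LC3 gene of the autophagosome, measured 5.5 and 7.45 FPKM without HDAC3, against 15 and 21.4 FPKM in controls (log2 change −1.41; limma, adjusted p = 0.00111), and *Ctsl*, the cathepsin L gene, fell (log2 change −1.31), while *Ctss*, the cathepsin S gene, rose at 135 and 118 FPKM without HDAC3, against 60.8 and 83 FPKM in controls (log2 change 0.83; limma, adjusted p = 0.00548). Of 27 tested NRF2 and glutathione genes 6 fell and 1 rose, with *Nqo1* (4.22 and 2.96 FPKM without HDAC3, 8.28 and 9.34 FPKM in controls) and *Gclm* (12.4 and 9.26 FPKM without HDAC3, 26.7 and 27.2 FPKM in controls), genes of quinone reduction and glutathione synthesis. NRF2 and glutathione falls numbered 3 without control library 2 and 3 with the median-ratio scaling. *Acss2*, of acetyl-CoA synthesis, fell (log2 change −1.65) and *Fasn*, the fatty acid synthase gene, rose (0.74), the whole fatty acid list giving 4 falls and 2 rises of 27. Falls of fatty acid genes numbered 2 without control library 2, 2 with the median-ratio scaling and 2 after quantile normalization. Their rises numbered 1 without control library 1 and 1 without control library 2. *Apoe*, a known target of the liver X receptors, fell at 15.2 and 10.2 FPKM without HDAC3, against 68.3 and 52.6 FPKM in controls (log2 change −2.22; limma, adjusted p = 1.23e-05). The neighboring gene *Apoc1* rose at 2.14 and 2.27 FPKM without HDAC3, against 0.49 and 0 FPKM in controls (log2 change 1.94; limma, adjusted p = 0.00254), so that adjacent genes of 1 cluster went opposite ways. *Tfrc*, the transferrin receptor gene, measured 20.8 and 16.1 FPKM in HDAC3-deficient LMPPs, against 6.93 and 7.93 FPKM in control LMPPs (log2 change 1.25; limma, adjusted p = 0.00133) and *Tfr2* 16 and 16.7 FPKM without HDAC3, against 29.3 and 33.8 FPKM in controls (log2 change −0.93; limma, adjusted p = 0.00285), again in opposite directions, and the other 25 tested iron and heme genes held 1 further rise (*Alas1*). *Ctss*, *Fasn* and *Alas1* had no call without control library 1.

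Clock genes gave 5 falls and 0 rises of 14, including *Per3* and *Nr1d2* (log2 change −1.24 and −0.95). Clock falls numbered 8 without HDAC3-deficient library 1, 2 without control library 1, 3 without control library 2, 3 with the median-ratio scaling and 1 after quantile normalization. Calls of the remaining lists are given as rises and falls of the tested members. TGF-beta and BMP genes gave 0 and 5 of 22, with *Tgfbr2* at 5.96 and 4.53 FPKM without HDAC3, against 12.1 and 15.2 FPKM in controls. The TGF-beta falls numbered 9 without HDAC3-deficient library 1, 3 without HDAC3-deficient library 2, 3 without control library 1, 2 without control library 2, 2 with the median-ratio scaling and 3 after quantile normalization. Notch genes gave 2 and 3 of 15, with *Notch1* higher at 15.2 and 13.2 FPKM without HDAC3, against 6.43 and 8.59 FPKM in controls (log2 change 0.89; limma, adjusted p = 0.0119), a call lost without control library 1 (adjusted p = 0.125). Wnt genes gave 1 and 2 of 17, chemokines and their receptors 1 and 5 of 15, SLAM genes 1 and 2 of 6, small GTPase regulators 0 and 4 of 28, with *Rhob* at 4.89 and 2.71 FPKM without HDAC3, against 19.8 and 20.9 FPKM in controls, and Bcl2 family genes 1 and 3 of 15. Chemokine and receptor falls numbered 3 without HDAC3-deficient library 2, 1 without control library 2, 1 with the median-ratio scaling and 2 after quantile normalization. Falls of GTPase regulators numbered 11 without HDAC3-deficient library 1, 2 without control library 2 and 1 with the median-ratio scaling. Wnt falls numbered 5 without HDAC3-deficient library 1, 1 without control library 2 and 1 with the median-ratio scaling. Notch falls numbered 1 with the median-ratio scaling and 1 after quantile normalization. Notch rises numbered 1 without HDAC3-deficient library 1, 0 without control library 1 and 1 without control library 2. Splicing factors gave 9 and 2 of 48, aminoacyl-tRNA synthetases 2 and 0 of 20, ATF4 targets 1 and 2 of 20, ER stress genes 2 and 1 of 27 and sterol synthesis genes 1 and 1 of 23. Rises of splicing factors numbered 5 without control library 1, 1 without control library 2 and 5 after quantile normalization. Synthetase rises numbered 4 without HDAC3-deficient library 1, 1 without HDAC3-deficient library 2, 0 without control library 2 and 7 with the median-ratio scaling. ER stress rises numbered 5 without HDAC3-deficient library 1, 5 without HDAC3-deficient library 2, 0 without control library 1, 0 without control library 2 and 5 with the median-ratio scaling. LXR genes gave 1 and 3 of 11, and MYC network genes 0 and 2 of 11. For ATF4 targets, ER stress and sterol synthesis, the share that fell was under the 18.8% of all genes. *Per3* had no call without control library 1, nor had *Nr1d2* without control library 2.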

How the data were processed

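RNA-seq of 4 LMPP libraries was analysed, 2 HDAC3-deficient and 2 control. The FPKM values were deposited by the authors as 1 table per cell type, made with Bowtie2 and RSEM on mouse mm10 according to the submitters' processing notes. The sources used here give neither tool versions nor the strand setting of the counting. The LMPP table held 17445 transcripts or genes, 16415 with a gene ID, of which 16374 matched RefSeq, and 1030 without. The tables of the other cell types were not used, and mitochondrially encoded genes are not analysed here. Some genes are not reported here. Depth was estimated at 18800000 to 19200000 fragments from 54 to 76 values per library, of which 65.2% to 77.2% lay within 6% of a whole fragment, so a count test was not run.

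Values were tested as log2(FPKM + 0.5) with limma 3.58.1 in R 4.3.3 (trended moderation, HDAC3-deficient over control) on the 11146 genes with at least 1 FPKM in 2 or more libraries. P values were Benjamini-Hochberg adjusted over all of them and called under 0.05. The test was checked on simulated data. Alternatives were pseudocounts of 0.1 and 1, no filter and a filter at 5 FPKM, median-ratio and quantile scaling, hemoglobin genes left out with rescaling, limma without trend or with robust moderation, a replicate block, and each library left out.

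The comparison, the 66 gene lists (1709 of their 1760 entries were in the table) and the tests were chosen with earlier results of these data known. Lists are described by counts and medians without a test. Genes named were *Hdac3*, *Meis1*, *Egr1* and *Ms4a3*, the 12 largest rises and falls by log2 change and the 10 largest by FPKM among calls with separated libraries, up to 4 calls per list by p value and up to 2 against the majority, the hemoglobin genes and the 10 genes differing most in each direction between the controls. Markers near 0 FPKM are named from the marker lists. Reads of paralogs (*Hspa1a* and *Hspa1b*, hemoglobin, *H2-Q*, *Ifit*, histone and ribosomal protein genes) may have been split, and genes that overlap or are antisense to another cannot be told apart without a known strand setting. Promoters were the 250 bases before the RefSeq start on GRCm38.p6, searched on both strands for the heat shock element pair GAANNTTC, the CCAAT box, the CRE TGACGTCA, the CArG box, the AP-1 site TGANTCA and, added after seeing the data, the interferon-stimulated response element (a pair of GAAA blocks separated by 2 bases). Of the 18 Egr and AP-1 list genes with a promoter, 2 held a CRE, 2 an AP-1 site and 2 a CArG box (11.1% each). The shares of all promoters were 1.77%, 7.82% and 1.62%. Among the 10 of them that fell, the counts were 1, 0 and 1, and *Egr1* was not among the 18. Python 3.11.15 with pandas 2.3.3, numpy 2.4.6 and matplotlib 3.10.9 was used for the rest.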

Additional observations from a re-analysis of the deposited data

How the results depend on the processing

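The 480 rises and 2096 falls became 50 and 451 without a filter on low values, 863 and 999 with the median-ratio scaling, and 777 and 874 after quantile normalization. Without the trend 227 genes rose. Leaving out 1 library at a time gave 172 to 951 rises and 995 to 2981 falls, the lone sample being assumed to vary like the others, and in every such run no call changed direction. Of the 264 called genes among the 280 named, 160 lost the call without a filter, where many genes near 0 FPKM enter the test, 48 with the median-ratio scaling, 52 after quantile normalization, 43 without the trend, 12 with hemoglobin left out, 56 without control library 1, 81 without control library 2, 6 without HDAC3-deficient library 1 and 21 without HDAC3-deficient library 2. The causes were not tested.

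The labels number the libraries 1 and 2 in both genotypes but do not say that a number pairs them, and the deviations of same-numbered libraries from their group means correlated at −0.103 across genes. With the replicate block there were 454 rises and 2094 falls. The crossed pairing, added after seeing the data, gave 779 and 2731.

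With 2 libraries per genotype, a difference that missed the test is not shown to be absent. At these depths, values under 1 FPKM rest on few fragments, and FPKM gives no absolute amount of RNA per cell.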

Other observations

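Apart from hemoglobin, the genes that differed most between the control libraries were low or belonged to other blood cells. *Prg2*, an eosinophil granule gene, measured 6.55 and 2.53 FPKM in HDAC3-deficient LMPPs, against 0.79 and 8.58 FPKM in control LMPPs. *Tmem254b* measured 0 and 2.43 FPKM in HDAC3-deficient LMPPs, against 0.39 and 12.2 FPKM in control LMPPs. In both genes the groups overlapped and neither had a call. *Snord17*, a small nucleolar RNA gene, had a call (limma, adjusted p = 0.043) although its values were 1.88 and 2.42 FPKM in HDAC3-deficient LMPPs, against 1.40 and 0 FPKM in control LMPPs. Transcripts without a gene ID held 3.97% and 4.44% of FPKM in HDAC3-deficient LMPPs, against 3.70% and 3.91% in control LMPPs.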
